A study of Mus musculus with 12 samples.

Results

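The 10 genes described here are genes of the endoplasmic reticulum (ER) stress response, taken by symbol from the 54532 genes counted in each of 12 libraries of mouse colon RNA: Hspa5, Xbp1, Atf4, Ddit3, Ern2, Dnajb9, Herpud1, Sdf2l1, Pdia4 and Trib3. The libraries came from male C57BL/6 mice, 3 in each of 4 groups, aged 6 weeks at arrival and kept for 1 week before the experiment. The DSS group received 3% (w/v) dextran sulfate sodium, a polymer that injures the colon epithelium, in the drinking water for 5 days. The UA+DSS group had the same DSS and ursolic acid (UA), a plant triterpenoid, by gavage at 200 mg/kg from 24 h before DSS, and the DSS+UA group had UA at that dose from 3 days after the start of DSS. The Con group had no DSS and no UA; its labels call it untreated, while the methods give the vehicle by gavage to it and to the DSS group. The length of UA treatment is given as 7 and 4 days for UA+DSS and DSS+UA in the methods and as 9 and 5 days in the discussion. Each library is colon tissue with its cell types mixed. Fewer cells of a type and less RNA per cell therefore cannot be told apart in any value below. The labels list 3 samples a group. In the main edgeR fit the p-values set group differences against the spread between samples of a group, estimated over all 12 libraries.

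Proteins that are to be secreted or placed in membranes fold in the ER. When unfolded protein builds up there, IRE1, PERK and ATF6 start the unfolded protein response: IRE1 splices Xbp1 mRNA, PERK slows translation and lets ATF4 be made, and ATF6 is cut to release a transcription factor. Together these raise chaperones, folding enzymes and degradation factors, and under long stress CHOP (Ddit3) and Trib3. The colon epithelium depends on this response because goblet cells make large amounts of mucin, and a second IRE1, encoded by Ern2, is known from mucus-making cells.

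The stretches before the start sites of 3 members are shown here because they hold, or lack, the elements through which ATF6, XBP1 and ATF4 are known to act. Of the 10 members, 9 had a RefSeq promoter window (GRCm38.p6, 250 bases before to 50 after the start), all but Ern2. Both strands were searched for ERSE (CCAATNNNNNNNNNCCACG), ERSE-II (ATTGGNCCACG), the UPRE core (TGACGTGG) and the ATF4 composite element CARE (TGATGNAA). The printed stretches are the 250 bases before the RefSeq start, 5′ to 3′ on the gene's strand, from chr2:34771840-34772089 (plus strand) for Hspa5, chr8:94386179-94386428 (plus strand) for Herpud1 and chr16:17132384-17132633 (minus strand) for Sdf2l1. Capitals mark ERSE in Hspa5, CARE and then ERSE-II in Herpud1, and the 3′ part of ERSE on its own (CCACG, or CGTGG on the other strand) in Sdf2l1.
Hspa5: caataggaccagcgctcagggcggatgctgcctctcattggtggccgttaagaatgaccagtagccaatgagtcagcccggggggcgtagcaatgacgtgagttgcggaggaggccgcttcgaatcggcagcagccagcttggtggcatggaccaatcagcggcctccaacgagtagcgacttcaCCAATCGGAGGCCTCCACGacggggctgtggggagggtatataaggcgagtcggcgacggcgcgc
Herpud1: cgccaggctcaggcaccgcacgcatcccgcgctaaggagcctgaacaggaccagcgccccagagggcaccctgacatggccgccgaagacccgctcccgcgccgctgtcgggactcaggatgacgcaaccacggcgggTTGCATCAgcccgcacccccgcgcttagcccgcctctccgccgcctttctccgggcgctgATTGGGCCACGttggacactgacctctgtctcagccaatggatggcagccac
Sdf2l1: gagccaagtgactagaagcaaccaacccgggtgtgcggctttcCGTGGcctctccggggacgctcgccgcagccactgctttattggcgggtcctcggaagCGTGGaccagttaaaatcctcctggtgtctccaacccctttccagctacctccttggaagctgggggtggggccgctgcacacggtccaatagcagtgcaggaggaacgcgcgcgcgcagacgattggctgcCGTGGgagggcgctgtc

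Hspa5 held 1 ERSE, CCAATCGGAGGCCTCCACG, beginning 65 bases before the start (position -65); GENCODE places the gene's first base further upstream, at chr2:34771970, so that the match lies inside that gene model. Herpud1 held the ERSE-II ATTGGGCCACG at -52, which overlaps 1 of its CCACG matches, and a CARE at -112. Trib3 held a CARE that begins 15 bases past its RefSeq start. GENCODE places the gene's first base further downstream, at chr2:152344032 on the minus strand, so that this match lies before that gene model. No full ERSE, ERSE-II, UPRE core or CARE was found in the windows of Xbp1, Atf4, Ddit3, Dnajb9, Sdf2l1 or Pdia4. Of all 32851 windows, 0.119% held an ERSE, 0.0365% an ERSE-II, 0.676% a UPRE core, 3.97% a CARE and 32.8% a CCACG. A match describes the letters only, since the binding of no factor was measured.

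All 10 members passed the low-count filter, as did 17658 genes in all. Library totals were 15566216 to 19498383 counts, and the values below are CPM, that is counts divided by library size, after TMM scaling, which evens out differences in composition between libraries. A gene is called raised or lowered where edgeR's quasi-likelihood test gives an adjusted p (Benjamini-Hochberg over the 17658 genes) under 0.05. Some libraries stood apart. In the third DSS library (DSS 3) 13 pancreatic acinar markers summed to 19290 CPM, against 34.5 to 573 in the other 11. In the second (DSS 2) 7 neutrophil markers summed to 17954 CPM, against 887 and 984 in the other DSS libraries and 9.26 to 114 in Con, and 12 goblet cell markers summed to 822 CPM, the lowest of all libraries. A colon position score from Hox genes (mean log2 CPM of distal minus proximal genes) was 0.37 to 3.10 in DSS, -5.70 to -4.16 in UA+DSS and 4.12 to 5.06 in DSS+UA, and spread from -3.02 to 5.52 in Con. Con 1 had the 5.52, against -3.02 and -1.83 in Con 2 and Con 3. In Con 1, 8 absorptive colonocyte markers summed to 2863 CPM, against 10806 and 6689 in Con 2 and Con 3. Con 1 also had the lowest Con value of Hspa5, Xbp1, Sdf2l1, Pdia4, Dnajb9 and Atf4.

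Per length, the members kept a wide order. Mean Hspa5 was highest in every group, at 87.2 ± 21.4 CPM per kb of exon in Con and 214 ± 25.8 in DSS (SD, n = 3), and it was followed by Xbp1 and Atf4 in changing order. In Con these 3 overlapped (64 to 106 for Hspa5, 77.8 to 90.7 for Atf4 and 64.4 to 90.6 for Xbp1), whereas in DSS each stood clear of the next. Herpud1, Pdia4 and Sdf2l1 lay in the middle, and Pdia4 and Sdf2l1 overlapped in every group but Con. Ddit3 came ninth in all 4 groups, at 9 ± 2.11 CPM per kb in Con, and Trib3 last, at 0.515 ± 0.195, with no overlap between Ddit3 and Trib3 in any group. Ern2 was sixth in Con, at 33.9 ± 6.96 CPM per kb, and eighth in DSS, at 10.3 ± 7.3, where its range of 3.82 to 18.2 overlapped that of Ddit3.

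**Figure D1:**
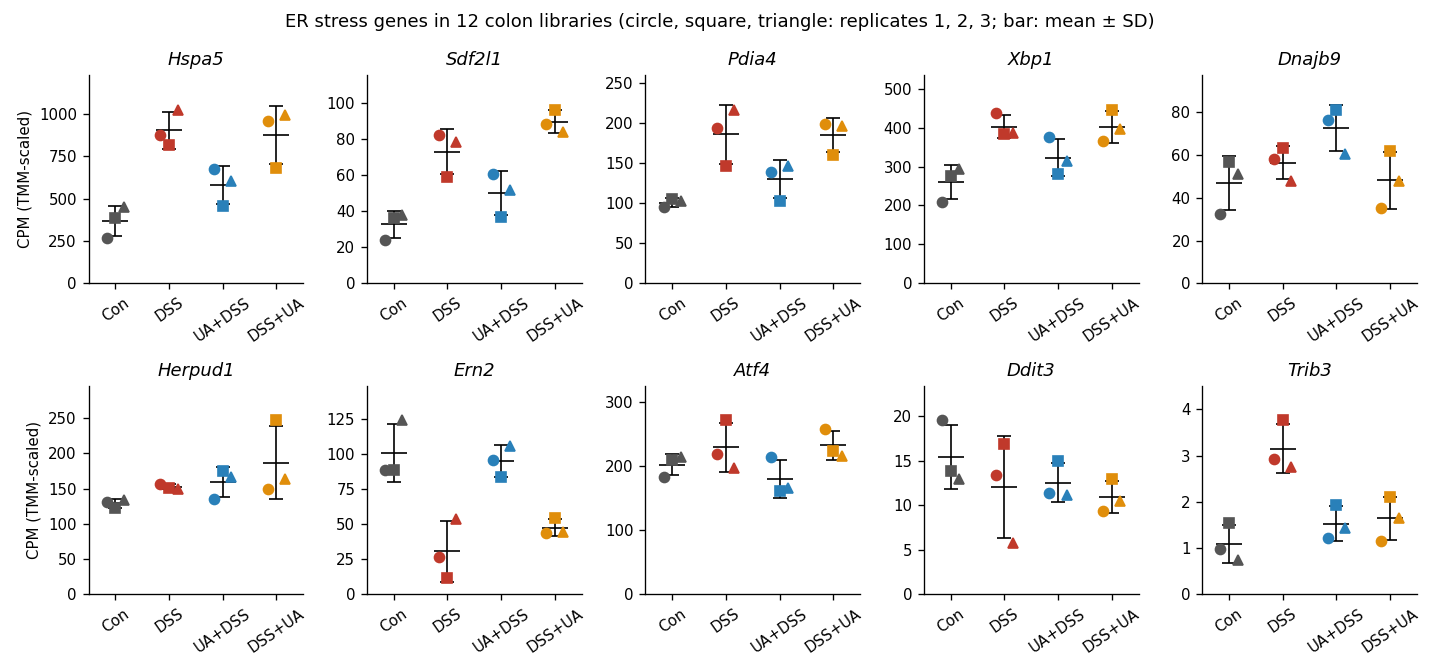
TMM-scaled CPM (y axis, linear from 0) of the 10 members in the 4 groups (x axis), with 1 point a library, its shape giving the replicate number, and bars for the mean ± SD of 3 libraries. Hspa5, Sdf2l1, Pdia4 and Xbp1 lie higher in all DSS and DSS+UA libraries than in any Con library, and Ern2 lies lower in them.

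The comparison of DSS with Con asks what colitis does to these genes. The chaperone Hspa5, the folding partners Sdf2l1 and Pdia4, the transcription factor Xbp1 and the pseudokinase Trib3 rose 1.55-fold to 2.87-fold, and Ern2 fell 3.29-fold. The mRNAs of Atf4, Ddit3, Dnajb9 and Herpud1 were not called. So 5 of 10 members were raised and 1 was lowered; over all genes tested 13.9% were raised and 12.6% lowered, 26.5% in all. The groups did not overlap for 7 members, against 41.3% of all genes, and the members' median log2 fold change was 0.45 against -0.03 for all genes tested.

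Hspa5 (ENSMUSG00000026864, chr2:34771970-34777547, plus strand) encodes BiP, the main Hsp70 chaperone of the ER and the protein that holds the stress sensors inactive. It measured 271, 387 and 449 CPM in Con, 875, 815 and 1026 in DSS, 674, 458 and 607 in UA+DSS, and 957, 679 and 992 in DSS+UA. Every DSS and DSS+UA library was above every Con library, and the UA+DSS libraries lay between Con and DSS with no overlap with either. Hspa5 rose in DSS against Con (log2 fold change 1.30, SE 0.25, edgeR adjusted p = 0.00544) and in DSS+UA against Con (1.25, SE 0.25, adjusted p = 0.00992). UA+DSS was 0.64 lower than DSS on the log2 scale (-0.64, SE 0.25) with an edgeR adjusted p = 0.0885, which is not a call; DESeq2 gave -0.65 with an adjusted p = 0.0356.

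Sdf2l1 (ENSMUSG00000022769, chr16:17130138-17132383, minus strand), which works with BiP and its co-chaperones, showed 24.1, 36.2 and 37.8 CPM in Con. Its DSS libraries had 82, 58.8 and 78.2 CPM, its UA+DSS libraries 60.9, 36.8 and 52, and its DSS+UA libraries 88.5, 96.3 and 83.9. DSS+UA was the highest group, above every DSS library, and UA+DSS 2 fell within the range of Con. The gene rose in DSS against Con (log2 fold change 1.16, SE 0.22, edgeR adjusted p = 0.00556) and more so in value in DSS+UA against Con (1.45, SE 0.23, adjusted p = 0.00528). It was lowered in UA+DSS against DSS+UA (-0.84, SE 0.22, edgeR adjusted p = 0.0274), and this was the only member that edgeR called in that comparison; DESeq2 called Pdia4 too (-0.52, adjusted p = 0.0451). With the position score in the fit that difference was -1.36 with an adjusted p = 0.304, a fit that called 0 of all genes in this comparison and 2250 at an unadjusted p under 0.05. It was not called either without UA+DSS 2 (-0.67, adjusted p = 0.11), UA+DSS 3 or any 1 of the DSS+UA libraries.

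Pdia4 (ENSMUSG00000025823, chr6:47796141-47813430, minus strand), a protein disulfide isomerase, had 95.3, 106 and 103 CPM in Con and 194, 146 and 217 in DSS. UA+DSS gave 139, 103 and 147 CPM and DSS+UA 199, 160 and 196. The Con libraries lay close together, with a coefficient of variation of 5.34%, and all DSS and DSS+UA libraries were above them. Pdia4 rose by a log2 fold change of 0.88 (SE 0.19, edgeR adjusted p = 0.00848) in DSS and 0.87 (SE 0.19, adjusted p = 0.0132) in DSS+UA against Con; without DSS+UA 3 the latter gave an adjusted p = 0.0502. A microRNA gene, Mir704, lies within its exons on the same strand.

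Without DSS 3, the library with acinar transcripts, Hspa5, Sdf2l1 and Pdia4 still rose in DSS against Con. Their log2 fold changes were then 1.20, 1.11 and 0.75, with edgeR adjusted p = 0.0113, 0.0106 and 0.0218. Pancreatic acinar cells are known for a high demand on ER folding, so these values are given beside the full ones. The highest DSS value of both Hspa5 and Pdia4 was in DSS 3.

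Xbp1 (ENSMUSG00000020484, chr11:5520659-5525893, plus strand) encodes the transcription factor that IRE1 splicing makes active, and gene counts do not separate the spliced form. It had 209, 275 and 294 CPM in Con, 436, 384 and 387 in DSS, 375, 280 and 314 in UA+DSS and 365, 446 and 395 in DSS+UA. Xbp1 was higher in each DSS and DSS+UA library than in any Con library, and UA+DSS overlapped Con. The gene rose in DSS against Con (log2 fold change 0.63, SE 0.18, edgeR adjusted p = 0.0281) and in DSS+UA against Con (0.63, SE 0.18, adjusted p = 0.0379). Both calls were marginal: the first was lost without Con 1, Con 2 or DSS 1 (0.50 to 0.68, adjusted p = 0.0585 to 0.0845), and the second was lost without any 1 of its 6 libraries (0.50 to 0.74, adjusted p = 0.0531 to 0.0975).

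Dnajb9 (ENSMUSG00000014905, chr12:44205559-44210326, minus strand), the co-chaperone ERdj4 and a known XBP1 target, was not raised where Xbp1 was. Con had 32.5, 56.6 and 51 CPM, DSS 58, 62.9 and 47.8, UA+DSS 76.2, 81 and 60.3, and DSS+UA 35.2, 61.5 and 47.5. UA+DSS was the group with the highest mean, 72.5 ± 10.8 CPM, and the only one whose libraries all exceeded those of Con. No comparison called the gene: the log2 fold change was 0.27 (SE 0.24, edgeR adjusted p = 0.43) in DSS and 0.64 (SE 0.24, adjusted p = 0.353) in UA+DSS against Con. The gene Gm6568 shares 5.5% of the 50-base stretches of its exons, and the microRNA gene Mir5627 lies antisense to it.

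Herpud1 (ENSMUSG00000031770, chr8:94386438-94395377, plus strand) encodes a membrane protein of ER-associated degradation, the route that sends misfolded protein to the proteasome. Its values were 131, 122 and 134 CPM in Con, 157, 151 and 150 in DSS, 135, 175 and 166 in UA+DSS and 150, 247 and 164 in DSS+UA. All 9 libraries of mice with DSS exceeded the 3 of Con, but by little: the log2 fold change in DSS was 0.24 (SE 0.19, edgeR adjusted p = 0.352) and in DSS+UA 0.53 (SE 0.19, adjusted p = 0.0708), where DESeq2 called it (0.54, adjusted p = 0.0408). The high DSS+UA mean, 187 ± 52.3 CPM, rests on DSS+UA 2. Hspa5 and Herpud1, the members with an ERSE or ERSE-II in the stretches printed above, thus had log2 fold changes of 1.30 and 0.24 in DSS against Con, and Sdf2l1, with neither, had 1.16.

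**Figure D2:**
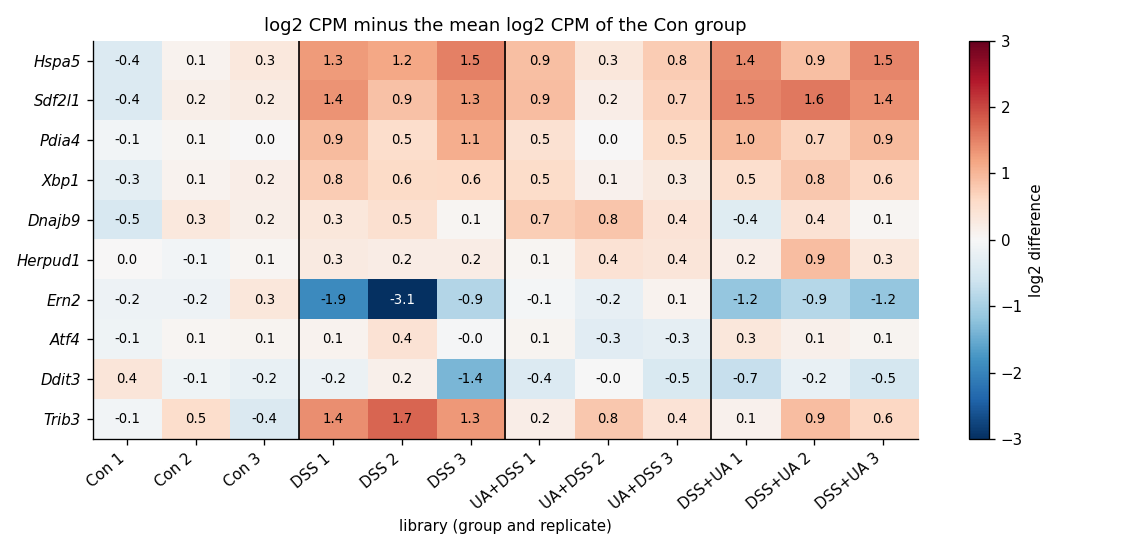
Each cell gives a library's log2 CPM minus the mean log2 CPM of Con (colour scale from -3 to 3), for the 10 members (rows) in 12 libraries (columns, black lines between groups). Hspa5 ranges from 1.17 to 1.51 in DSS and from 0.34 to 0.9 in UA+DSS.

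Ern2 (ENSMUSG00000030866, chr7:122169893-122186207, minus strand), the mucosal IRE1, was the only member lowered in DSS. It had 88.5, 88.7 and 124 CPM in Con, 26.5, 11.3 and 54 in DSS, 96, 83.4 and 106 in UA+DSS and 44, 54.5 and 44.3 in DSS+UA. UA+DSS overlapped Con and was above all DSS and DSS+UA libraries, and DSS+UA lay below Con. The gene fell by 1.72 on the log2 scale in DSS against Con (SE 0.42, edgeR adjusted p = 0.015) and was raised in UA+DSS against DSS (1.64, SE 0.42, adjusted p = 0.0252). In DSS+UA it was -1.08 (SE 0.42, adjusted p = 0.0893) against Con and 0.64 (SE 0.41, adjusted p = 0.325) against DSS, neither of them called by edgeR. Against Con, DESeq2 called it lowered in DSS+UA (-1.07, adjusted p = 0.0472), as did edgeR with only these groups in the fit (-1.11, adjusted p = 0.017). Fits of only the groups compared did not call its fall in DSS against Con (-1.74, edgeR adjusted p = 0.0722). They did not call its rise in UA+DSS over DSS either (1.64, edgeR adjusted p = 0.0808). Without a low-count filter that rise was also not called (1.64, edgeR adjusted p = 0.0525).

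The values of Ern2 depended on the DSS libraries. Without DSS 2, which had the fewest goblet transcripts, the fall against Con was -1.32 (edgeR adjusted p = 0.0115), and without DSS 3 it was -2.41 (adjusted p = 0.00208). Without DSS 1 it was -1.62 with an adjusted p = 0.0522. The rise in UA+DSS over DSS was not called without DSS 1 (adjusted p = 0.0803) or without any 1 of the UA+DSS libraries (0.0562 to 0.077), and with the position score in the fit, where 3 of all genes were called, it was 1.35 with an adjusted p = 0.244. DSS+UA against DSS was called without DSS 3 (1.35, adjusted p = 0.0381).

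Goblet cell markers were read beside Ern2. The 12 markers, among them Muc2, summed to 8242 to 14575 CPM in Con, 822 to 7417 in DSS, 12396 to 12864 in UA+DSS and 5144 to 12310 in DSS+UA, and none was at 0 in a whole group. In DSS against Con 12 of 12 were lower in value, with 0 raised and 2 lowered by edgeR, where 12.6% of all genes were lowered (median log2 fold change -1.32), and in UA+DSS against DSS 12 of 12 were higher, with 2 raised, where 8.21% of all genes were (median 1.31). Ern2 per 1000 CPM of these markers was 7.21 to 10.7 in Con, 4.52 to 13.8 in DSS, 6.73 to 8.46 in UA+DSS and 4.43 to 8.55 in DSS+UA, so that all 4 groups overlapped. Against Muc2 alone the ratio was wider, from 13.4 to 120 Ern2 CPM per 1000 CPM of Muc2 in Con. There Con 1 had 741 CPM of Muc2 against 5869 and 6633 in the other Con libraries. The Muc2 ratio was 37.7 to 76.9 in DSS, 19 to 30.4 in UA+DSS and 45.1 to 67 in DSS+UA. By this ratio UA+DSS lay below DSS and DSS+UA with no overlap, and every group overlapped Con. The part of goblet cell number in the change of Ern2 was not tested.

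**Figure D3:**
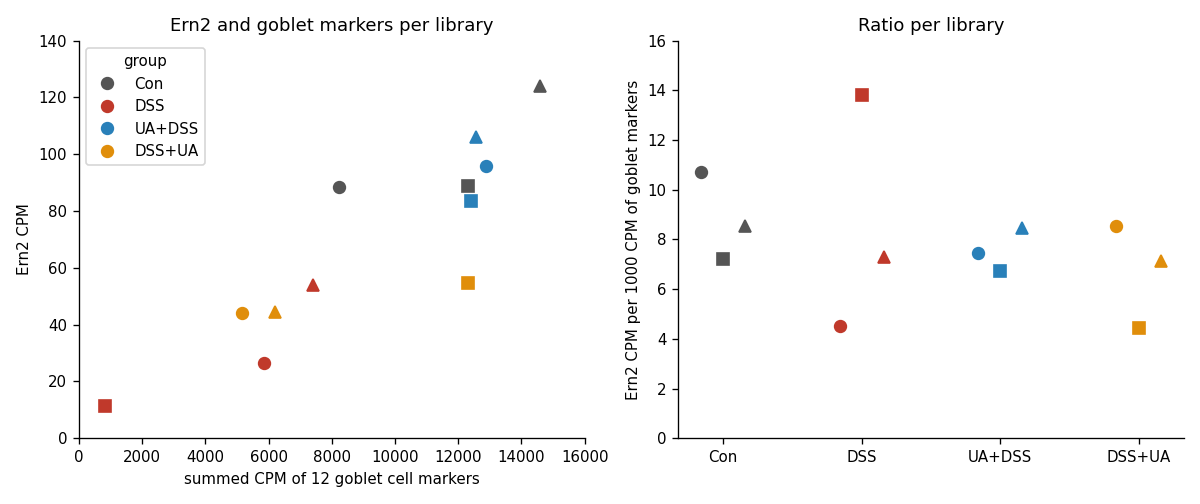
Left, Ern2 CPM (y axis) against the summed CPM of 12 goblet cell markers (x axis), 1 point a library, coloured by group and shaped by replicate number; right, Ern2 CPM per 1000 CPM of these markers. DSS 2 has the lowest of both measures on the left (11.3 and 822 CPM), and on the right the groups overlap, with DSS 2 highest at 13.8.

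Atf4 (ENSMUSG00000042406, chr15:80255184-80257541, plus strand) encodes the transcription factor that PERK signalling induces mainly by translation, a step RNA counts do not see. Its values were 183, 209 and 214 CPM in Con, 218, 271 and 197 in DSS, 214, 161 and 166 in UA+DSS and 258, 224 and 215 in DSS+UA. DSS overlapped Con, and no comparison called it; the log2 fold change in DSS was 0.18 (SE 0.18, edgeR adjusted p = 0.47).

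Ddit3 (ENSMUSG00000025408, chr10:127290774-127296288, plus strand) encodes CHOP, the factor linked to cell death under long ER stress, and was low. It had 19.5, 13.8 and 12.9 CPM in Con, 13.4, 16.9 and 5.76 in DSS, 11.4, 15 and 11.1 in UA+DSS and 9.37, 12.9 and 10.5 in DSS+UA. All groups overlapped Con, and the lowest library, with 109 counts, was DSS 3. No comparison called it, the log2 fold change in DSS being -0.36 (SE 0.34, edgeR adjusted p = 0.453). Exons of Mars and Gm4189 lie antisense to those of Ddit3, the use of strand in counting is not given in the sources used here, and a second identifier of the same symbol held 0 counts in all libraries, so this value is uncertain.

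Trib3 (ENSMUSG00000032715, chr2:152337422-152344032, minus strand), a pseudokinase induced by ATF4 and CHOP, was the scarcest member, with 14 to 75 counts a library. It had 0.983, 1.55 and 0.749 CPM in Con, 2.93, 3.76 and 2.75 in DSS, 1.22, 1.94 and 1.44 in UA+DSS and 1.16, 2.1 and 1.66 in DSS+UA. The 3 DSS libraries were above the other 9. Trib3 rose in DSS against Con (log2 fold change 1.52, SE 0.38, edgeR adjusted p = 0.0145), the largest rise of any member. With only these groups in the fit the rise was 1.51 (edgeR adjusted p = 0.0572), which is not a call. Against DSS Trib3 was -1.04 (SE 0.37, adjusted p = 0.0706) in UA+DSS and -0.94 (SE 0.37, adjusted p = 0.117) in DSS+UA, neither called by edgeR. DESeq2 called it in UA+DSS against DSS (-1.05, adjusted p = 0.0304).

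The comparison of UA+DSS with DSS asks what UA begun before DSS changes, and here Ern2 was the only member called. So 1 of 10 members was raised and 0 were lowered, against 18.7% of all genes called (8.21% raised and 10.5% lowered). An unadjusted p under 0.05 was seen for 5 members and for 6106 of all 17658 genes. DESeq2 called 4 members, and 4497 of the 17485 genes to which it gave an adjusted p. The groups did not overlap for 4 members, Ern2 higher and Hspa5, Xbp1 and Trib3 lower, against 42.8% of all genes. The median log2 fold change of the members was -0.33 against -0.02 for all genes. Sdf2l1 and Pdia4 were lower in mean by -0.55 (SE 0.22, edgeR adjusted p = 0.103) and -0.52 (SE 0.19, adjusted p = 0.0756), with overlap; DESeq2 called Pdia4 (-0.53, adjusted p = 0.0391).

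For DSS+UA against DSS, UA begun during DSS, edgeR called 0 of 10 members and so did DESeq2 and limma-voom, against 7.54% of all genes (2.54% raised and 5% lowered). Over all genes DESeq2 called 3107 of 17485 and limma-voom 1152 of 17658. Trib3 was the 1 member with an unadjusted p under 0.05, a level reached by 5274 of all 17658 genes. Hspa5, Xbp1 and Pdia4 differed from DSS by -0.05 (SE 0.24), -0.00 (SE 0.18) and -0.00 (SE 0.19) on the log2 scale, with edgeR adjusted p = 0.915, 0.995 and 0.99. The groups did not overlap for 2 members, Sdf2l1 (higher in DSS+UA) and Trib3 (lower), against 34.7% of all genes.

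Against Con, which shares its samples with the other comparisons to Con, UA+DSS gave 0 called members by edgeR, DESeq2 and limma-voom, with 3 at an unadjusted p under 0.05. Over all 17658 genes edgeR called 0.00566% and limma-voom 0, and 2132 had an unadjusted p under 0.05. DESeq2 called 374 of the 16800 genes to which it gave an adjusted p. Hspa5 was 0.65 higher in value (SE 0.25, edgeR adjusted p = 0.347) and did not overlap Con, nor did Dnajb9 and Herpud1, 3 members in all, against 20.6% of all genes. In DSS+UA against Con edgeR raised 4 of 10, Hspa5, Sdf2l1, Pdia4 and Xbp1, and lowered 0, against 18.1% of all genes called (9.13% raised and 8.95% lowered). DESeq2 raised 5, with Herpud1 in addition, and lowered 1, Ern2. Over all genes DESeq2 raised 2286 and lowered 2375 of 17485. There 7 members did not overlap, against 38.9% of all genes, and the median was 0.56 against -0.03. UA+DSS against DSS+UA lowered 1 of 10, Sdf2l1, against 16.8% of all genes called (7.54% raised and 9.23% lowered), and 5 members did not overlap, against 45.3%.

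**Figure D4:**
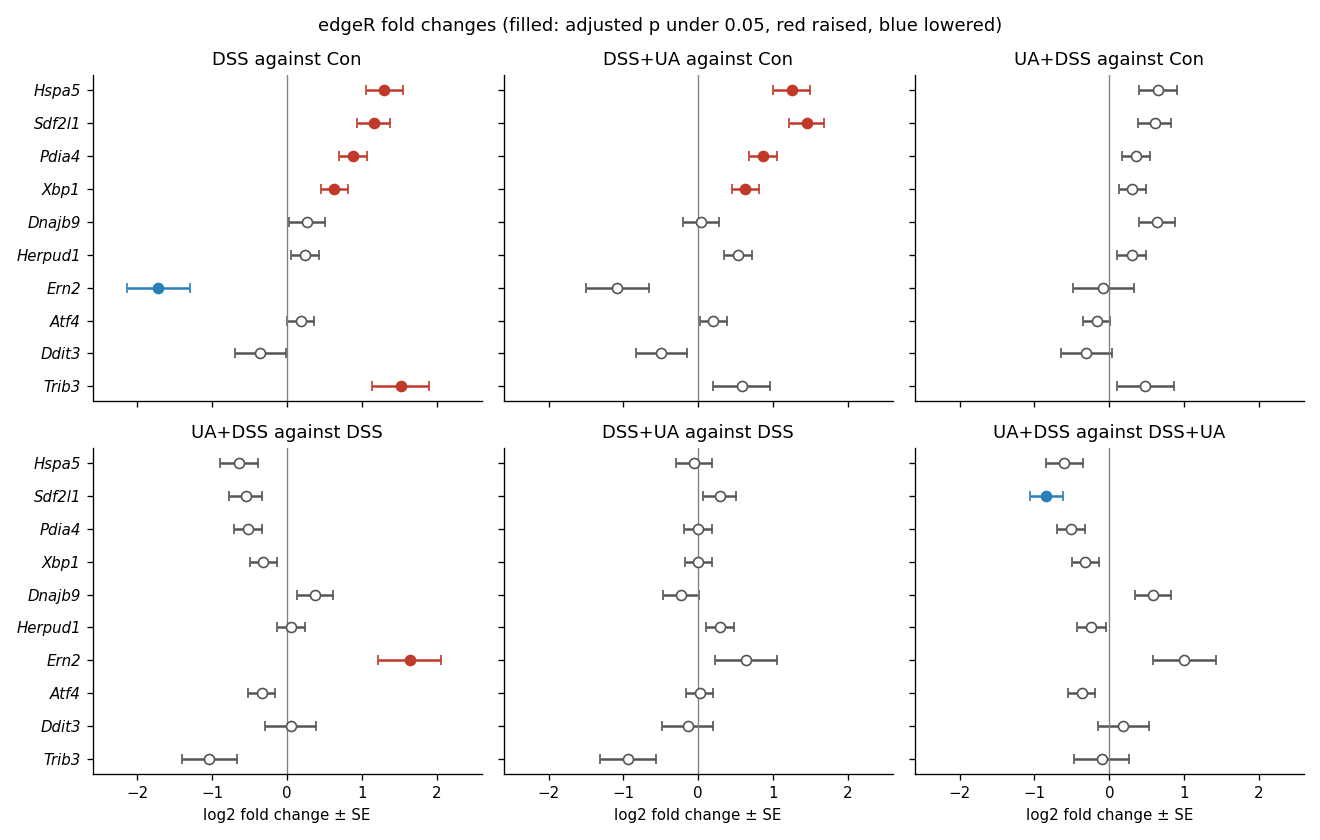
log2 fold change ± SE (x axis) of the 10 members in 6 comparisons from 1 edgeR fit of 12 libraries; filled points are called at an adjusted p under 0.05, red raised and blue lowered, and open points are not called. DSS and DSS+UA against Con share 4 red points, UA+DSS against Con has none, and Ern2 is the only filled point in UA+DSS against DSS.

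Across the 12 libraries the members fell into unequal patterns, given here as a description of log2 CPM that includes the group differences and shared library effects. Hspa5, Pdia4, Sdf2l1 and Xbp1 ran together, with Pearson's r from 0.83 to 0.95 for their 6 pairs. Dnajb9 had an r of 0.07 with Hspa5 and 0.29 with Xbp1, and Ern2 ran opposite to Trib3 (-0.78) and Hspa5 (-0.59). Among the 13719 tested genes whose log2 CPM averaged 1 or more, the genes most like Hspa5 were Hyou1 (0.99), Psme3 (0.98) and Abcf2 (0.97), and those most like Xbp1 were Cdc42se2 (0.97), Mgat2 (0.96) and Wdr45b (0.95). Sdf2l1 was most like Eif4a-ps4 (0.98), Mta2 (0.97) and Psmd7 (0.97), and Pdia4 most like Uba2, Cse1l and Gart (0.97 each). Ern2 was closest to Slc25a35, Pik3c2b and Sema3b (0.98 each). Dnajb9 was closest to Ighv1-72 (0.93), Slc46a3 (0.93) and Ighv6-6 (0.92), of which Ighv1-72 and Ighv6-6 are immunoglobulin variable genes. The highest values for Trib3 were Ctsl (0.93), Ctsd (0.89) and Ifi205 (0.88), for Atf4 Lacc1 (0.92), Jmjd6 (0.90) and Tinf2 (0.88), for Herpud1 Napa (0.92), Fbxo6 (0.91) and Atp6v0e (0.89), and for Ddit3 Inpp5k (0.88), Rfx5 (0.87) and Btg1 (0.86).

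Plasma cells also make much secreted protein, and their 10 markers summed to 1377 to 3090 CPM in Con, 2360 to 3696 in DSS, 1866 to 3102 in UA+DSS and 1428 to 2698 in DSS+UA. In DSS against Con 5 of 10 were raised by edgeR, against 13.9% of all genes, and in DSS+UA against Con 0 of 10 were, against 9.13%. None of the markers was at 0 in a whole group. The part of these cells in the members' values was not tested.

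The other genes of the pathway were read from 7 lists of 108 genes, of which 107 were tested (Fgf21 was not) and none is a member. In DSS against Con 28 were raised and 5 lowered, 30.8% against 26.5% of all genes. In UA+DSS against DSS 4 were raised and 15 lowered (17.8% against 18.7%), and in DSS+UA against DSS 4 and 4 (7.48% against 7.54%). UA+DSS against Con called 0 in edgeR and limma-voom and 1 in DESeq2, and 11 had an unadjusted p under 0.05. Over all genes edgeR called 1 there, limma-voom 0 and DESeq2 374, and 2132 of 17658 had an unadjusted p under 0.05. DSS+UA against Con raised 32 and lowered 2 (31.8% against 18.1%). UA+DSS against DSS+UA raised 3 and lowered 17 (18.7% against 16.8%).

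Of the 12 sensors and eIF2 kinases, 2 were raised and 1 lowered in DSS against Con, where 26.5% of all genes were called. Ern1, the IRE1 found in most tissues, had means of 53.5 ± 12.9 CPM in Con and 48.4 ± 6.69 in DSS (log2 fold change -0.15, SE 0.18, not called), unlike its mucosal relative Ern2. Eif2ak3 (PERK), at 0.05 (SE 0.22), and Atf6, at 0.38 (SE 0.22), were not called either. Creb3l2 rose by 1.29 (SE 0.30) and Atf6b by 0.48 (SE 0.13), and Creb3l4 fell by 1.43 (SE 0.48). In UA+DSS against DSS Creb3l4 was raised by 2.04 (SE 0.49), from 13.1 ± 9.79 to 54.2 ± 6.59 CPM.

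Of 16 other ER chaperones, 4 were raised and 2 lowered in DSS against Con, where 26.5% of all genes were called, and 6 were raised and 0 lowered in DSS+UA against Con, where 18.1% were. Creld2, a secreted ER stress protein, rose from 31.8 ± 4.82 CPM in Con to 85.6 ± 7.13 in DSS (log2 fold change 1.43, SE 0.16). Hyou1, the large Hsp70 relative that works with BiP, rose from 65.4 ± 19.8 to 177 ± 30 CPM (1.43, SE 0.29), and Manf, a small protein that binds BiP, by 0.84 (SE 0.17). Among the DSS libraries Hyou1 and Creld2 were highest in DSS 3 (209 and 90.5 CPM) and Manf in DSS 1 (192 CPM). Creld2 was lowered in UA+DSS against DSS by -0.80 (SE 0.16) and Manf by -0.69 (SE 0.17). Hsp90b1 (GRP94), at 0.69 (SE 0.24), and Dnajc3, at 0.62 (SE 0.24), were not called in DSS against Con. An ERSE was found in the promoter windows of 8 of 87 matched genes of the lists: Hsp90b1, Calr, Canx, Dnajc3, Creld2, Pdia6, Syvn1 and Derl3.

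Of 13 disulfide isomerases and oxidases 2 were raised and 0 lowered in DSS against Con, where 13.9% of all genes were raised and 12.6% lowered: Ero1lb by 0.82 (SE 0.17) and Ero1l by 1.15 (SE 0.27), while Pdia6 was 0.65 (SE 0.26), not called. Of 18 genes of ER-associated degradation 3 were raised and 0 lowered, and over the alternatives 0 (with only the groups compared in the fit) to 5 were raised. The fit with only the groups compared raised 1254 of all genes, against 2459 in the main fit. The 3 raised in the main fit were the ubiquitin-conjugating enzyme Ube2j1 by 0.62 (SE 0.13), the ubiquitin ligase adaptor Sel1l by 0.65 (SE 0.20) and Derl3 by 1.24 (SE 0.31). Among the DSS libraries Sel1l and Ero1lb were highest in DSS 3, the library with acinar transcripts (186 and 31.7 CPM). Ero1l was highest in DSS 2 (124 CPM), and Ube2j1 and Derl3 were not highest in DSS 3. Derl3 is also a plasma cell marker; it was lowered in both UA+DSS (-1.10, SE 0.31) and DSS+UA (-1.43, SE 0.31) against DSS.

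Of the 15 translocon and signal peptidase genes, edgeR and limma-voom called 0 and DESeq2 called 1 in DSS against Con, and the 3 with an unadjusted p under 0.05, Spcs2, Sec61a1 and Sec11c, were at 0.38 (SE 0.13), 0.63 (SE 0.26) and -0.40 (SE 0.18). Over all genes edgeR called 26.5% there, and 7161 of 17658 had an unadjusted p under 0.05. DESeq2 called 5712 of 17485. In DSS+UA against DSS edgeR raised 4 and lowered 0, where 7.54% of all genes were called, and limma-voom raised 2 and DESeq2 5. Over all genes limma-voom raised 399 there and DESeq2 1207. The 4 raised by edgeR were Sec61b, Sec61g, Sec11a and Ssr2, named after their values were seen. Sec61b, a subunit of the channel through which new proteins enter the ER, went from 159 ± 28.7 CPM in DSS to 289 ± 55.7 in DSS+UA (0.86, SE 0.20). In that comparison 0 of the 15 were called under library-size scaling, with the position score, with only the groups compared in the fit, or without DSS 2, DSS+UA 2 or DSS+UA 3. Over all genes these settings raised, in that order, 140, 28, 9, 30, 0 and 0, against 448 in the main fit. With so few genes raised at all, a count of 0 says little about the 15. DSS+UA against Con raised 5 and lowered 0 (18.1% of all genes called), and 4 to 7 under the alternatives. UA+DSS against DSS+UA raised 0 and lowered 6 (16.8% of all genes called), with 3 lowered without DSS+UA 3, and 0 without UA+DSS 2 or with the position score. Over all genes those settings lowered 587, 290 and 0, against 1629 in the main fit.

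Of 26 targets of ATF4 and CHOP tested, 16 were raised and 2 lowered in DSS against Con, where 26.5% of all genes were called, with a median log2 fold change of 0.86 against -0.03 for all genes, while the mRNA of Atf4 and Ddit3 was not called. Slc3a2, a subunit of amino acid transporters, rose from 59.7 ± 4.99 to 137 ± 28 CPM (1.20, SE 0.15), and Psat1, an enzyme of serine synthesis, from 12.7 ± 2.36 to 55.7 ± 4.3 (2.13, SE 0.37). Asns, the asparagine synthetase, rose by 1.35 (SE 0.39) and Chac1, which breaks down glutathione, by 1.79 (SE 0.36). The list was not uniform, with 21 targets higher and 5 lower in value. Nupr1 went from 324 ± 159 CPM in Con to 97.7 ± 32.4 in DSS and Vldlr from 26.7 ± 6.8 to 13 ± 6.57. Atf3 had 28.8 ± 7.63 and 28.6 ± 2.67 CPM. Sesn2 and Ppp1r15a were highest in DSS 2, at 58 and 94 CPM. Cebpb rose by 4.16 (SE 0.60), from 13.2 ± 2.81 CPM to 110, 509 and 91.4 in the DSS libraries, highest in DSS 2, where neutrophil markers were highest. Without DSS 2, 15 were raised and 1 lowered, and without DSS 3, 13 and 2. Over all genes 1912 were raised and 1572 lowered without DSS 2, and 2277 and 2007 without DSS 3. The main fit raised 2459 and lowered 2229.

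In UA+DSS against DSS, 9 of the 26 targets were lowered and 2 raised, where 18.7% of all genes were called, with a median of -0.60 against -0.02. Psat1 fell by 1.70 (SE 0.36), to 17.1 ± 8.12 CPM, and Slc3a2 by 1.01 (SE 0.15), to 68.1 ± 2.31. Without UA+DSS 2 the count was 1 lowered and 0 raised, but calls over all genes also dropped there, from 3300 to 183 (91 lowered). Without DSS 1 it was 7 lowered and 0 raised, where 1722 of all genes were called (1190 lowered). With the position score in the fit, where 3 of all genes were called, it was 0 and 0. In DSS+UA against DSS 2 were lowered and 0 raised by edgeR, and 5 and 0 by DESeq2, with Psat1 at 60.3 ± 20.3 CPM (0.11, SE 0.35) and Slc3a2 at 81.6 ± 2.31 (-0.75, SE 0.15). Over all genes edgeR lowered 883 and raised 448 of 17658 there, and DESeq2 lowered 1900 and raised 1207 of 17485. DSS+UA against Con raised 12 and lowered 2 by edgeR and 17 and 2 by DESeq2, with 6 raised without DSS+UA 1 and 5 without DSS+UA 3. Over all genes edgeR raised 1613 in the main fit, 921 without DSS+UA 1 and 628 without DSS+UA 3. DESeq2 raised 2286 and lowered 2375 of 17485. Neutrophil markers, at 27.1 to 121 CPM in UA+DSS and 399 to 1014 in DSS+UA, and the position score moved with these groups, and their part was not tested.

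**Figure D5:**
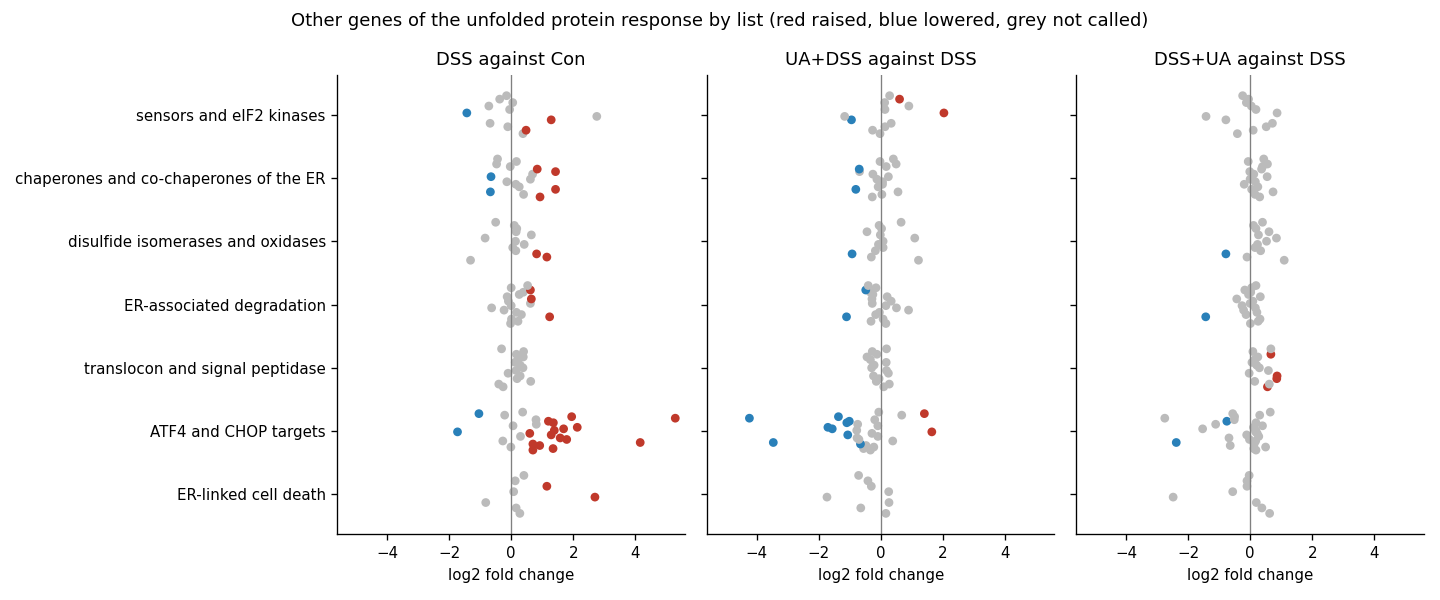
log2 fold change (x axis) of each gene of the 7 lists (rows) in DSS against Con, UA+DSS against DSS and DSS+UA against DSS, 1 point a gene in each list, red raised, blue lowered and grey not called by edgeR at an adjusted p under 0.05. Ero1l is drawn in both of its lists. Most red points of the left panel are targets of ATF4 and CHOP (16 of 28 genes raised), and 9 of the 15 blue points of the middle panel are too.

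The last list, 8 genes of ER-linked cell death, had 2 raised and 0 lowered in DSS against Con, against 26.5% of all genes called: Ero1l, which it shares with the oxidases, and Bcl2l11 (BIM) at 2.70 (SE 0.74). Bcl2l11 had 28.3, 193 and 18.5 CPM in the DSS libraries, highest in DSS 2, and without DSS 2 the list had 1 raised and 1 lowered. Over all genes 1912 were raised and 1572 lowered without DSS 2. Bbc3 (PUMA) was -0.82 (SE 0.45), not called.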

How the data were processed

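RNA from colonic tissue of 12 male mice was sequenced, and the methods do not give the part of the colon. The authors mapped reads to GRCm38, and the deposited files, 1 a sample, hold raw counts in whole numbers for each Ensembl gene. The methods credit the counts to Hisat2, and the submitters' processing notes name FastQC, HISAT2 and Cuffdiff. No version, annotation, strand setting or treatment of multi-mapping reads was given in the sources used here. In the report genes that overlap or share sequence are said to do so. Groups and replicate numbers came from the sample labels. Of 54532 identifiers 54495 had a name in GENCODE M21 (GRCm38), and the other 37 held 0.00364% of counts.

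Total counts were 15566216 to 19498383 (median 18569669). In R 4.3.3, edgeR 4.0.16 kept 17658 genes by filterByExpr (99.8% of counts), scaled by TMM (factors 0.871 to 1.09) and fitted 1 robust quasi-likelihood model without covariates to the 12 samples (biological coefficient of variation 0.352), tested on simulated data. The threshold was an adjusted p of 0.05 over all tested genes. CPM use TMM library sizes. Correlations used log2 CPM with a prior count of 2. An exact permutation test of 3 against 3 cannot go below 0.1, so none is given. 0 pairs of libraries held identical values, and replicates differed by 20.7 to 231 chi-square units per degree of freedom.

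The members, the pathway and cell lists, the motifs and the position score were chosen with earlier results of these data known. Genes named besides the members were the 3 of each list with the smallest p in DSS against Con, Ern1, Hsp90b1, Eif2ak3, Atf6, Hyou1, Dnajc3, Chac1 and Asns, and the 3 most like each member; any other gene was chosen with its values known. The settings tried besides were DESeq2 1.42.0, limma-voom 3.58.1, 2 other scalings, 2 other filters, fits of the groups compared alone, the replicate block, the position score and leaving out each library. Labels name Trizol for the RNA and the methods RNeasy.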

Additional observations from a re-analysis of the deposited data

Results flagged for a closer look

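Sdf2l1 differed between the groups given UA at different times: it was 0.84 lower on the log2 scale in UA+DSS than in DSS+UA (-0.84, SE 0.22, edgeR adjusted p = 0.0274), and was lower in 3 of 3 UA+DSS libraries (60.9, 36.8 and 52 CPM) than in any DSS+UA library (83.9 to 96.3 CPM). Both groups are compared with the same DSS samples, so this contrast is the test of the difference between their changes from DSS. Over its 15 alternatives the difference ranged from -1.36 to -0.67 and was called under 9. It was not called with the position score in the fit (-1.36, edgeR adjusted p = 0.304). Nor was it called without UA+DSS 2, without UA+DSS 3 or without any single DSS+UA library. The position score was -5.70 to -4.16 in UA+DSS and 4.12 to 5.06 in DSS+UA, and the part of colon position in this difference was not tested.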

How the results depend on the processing

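The rises of Hspa5, Sdf2l1 and Pdia4 in DSS against Con, and of Hspa5 and Sdf2l1 in DSS+UA against Con, were called under all 15 alternatives. Of 900 values of single members under alternatives, 817 kept their direction and side of the threshold, 13 passed it, 32 no longer did and 38 changed sign, and no value that changed sign was called. The number of members called in DSS against Con was 3 with a fit of the groups compared and 4 to 6 without single libraries. In UA+DSS against DSS it was 4 with DESeq2, 2 with library size alone, 2 with at least 10 counts in every sample, and 0 without a filter, with the position score or with a fit of the groups compared; leaving out single libraries gave 0 to 2. In UA+DSS against DSS+UA it was 2 with DESeq2, 2 with a fit of the groups compared and 0 with the position score, and 0 to 1 without single libraries. Without single libraries it was 0 to 1 in DSS+UA against DSS (Ern2 without DSS 3), 0 in UA+DSS against Con and 2 to 3 in DSS+UA against Con. Calls over all genes changed as well, in UA+DSS against DSS from 3300 in the main fit to 183 without UA+DSS 2 and 3 with the position score. The cause of these changes was not tested.

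Replicate numbers showed no sign of pairing the samples. Deviations from the group means of same-numbered samples correlated at -0.22 to 0.19 (median 0.04), with 5 of 18 pairs over 0.1. Different-numbered samples gave -0.29 to 0.24 (median -0.02), with 9 of 36 pairs over 0.1. These values cannot show that no pairing was used. With the replicate block UA+DSS against DSS called 2 members, Ern2 and Trib3 (-1.05, adjusted p = 0.0458), Xbp1 in DSS+UA against Con gave an adjusted p = 0.0575, and Pdia4 in DSS+UA against DSS was 0.00.

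Library size alone shifted the all-gene median of the log2 fold change by -0.13 in DSS+UA against DSS, where 448 raised and 883 lowered genes (33.7% raised) became 140 and 1003 (12.2%), and the raised share went from 50.5% to 39.9% in DSS+UA against Con. With it, Atf4 in DSS+UA against DSS was -0.11, Dnajb9 in DSS+UA against Con -0.03, and Ddit3 and Herpud1 in UA+DSS against DSS -0.05 each. With the position score Hspa5 was 0.15, Xbp1 0.11, Pdia4 0.02 and Dnajb9 0.00 in DSS+UA against DSS, Dnajb9 was -0.16 in both UA+DSS against DSS and UA+DSS against DSS+UA, and Ddit3 in UA+DSS against Con was 0.11. In DSS+UA against DSS, Xbp1 and Pdia4 were 0.02 each without a filter, Pdia4 was 0.00 with limma-voom, and Atf4 was -0.00 with at least 10 counts and -0.03 in the fit of the groups compared. Without single libraries, signs changed in DSS+UA against DSS for Hspa5 (-0.13 to 0.07), Xbp1 (-0.13 to 0.08), Atf4 (-0.06 to 0.18), Ddit3 (-0.46 to 0.21), Herpud1 (-0.00 to 0.44) and Pdia4 (-0.14 to 0.14), in UA+DSS against DSS for Ddit3 (-0.28 to 0.38) and Herpud1 (-0.02 to 0.16), in UA+DSS against Con for Ern2 (-0.17 to 0.09), in DSS+UA against Con for Dnajb9 (-0.17 to 0.24) and in UA+DSS against DSS+UA for Trib3 (-0.32 to 0.10). At 3 samples a group and 14 to 75 counts for Trib3, small differences of the low members could not be resolved, and a p that misses the threshold does not show that groups were alike.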
